A study of Mus musculus with 12 samples.

Results

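The 7 genes studied here belong to the complement system and were examined in chromatin accessibility data from macrophages of mouse brain tumours. They are C1qa, C1qb and C1qc, which encode the 3 chains of C1q, C3, Cfb, and the receptor genes C3ar1 and C5ar1. A region of the count table was taken for a gene when it overlapped the gene span or the 5 kb on either side. This gave 37 gene-region pairs and 33 distinct regions of 117835 in the table, for 7 of 21631 protein-coding genes. The regions were 3 for C1qa, 4 each for C1qb, C1qc, C3ar1 and Cfb, and 9 each for C3 and C5ar1. The assay was ATAC-seq, in which the Tn5 transposase inserts sequencing adapters into open DNA, on nuclei of sorted cells. All animals carried brain tumours of the genotype Ink4a/ArfKO with PDGFB. The series' design text describes tumours started by PDGF-B forced into Nestin-positive progenitor cells, so the macrophages come from a tumour-bearing brain in every group. Of the 4 groups, MDM are monocyte-derived macrophages, which enter from the blood, and MG are microglia, the resident macrophages of the brain. LL-MDM and LL-MG are the lipid-laden cells of each lineage, and MDM and MG are the cells without lipid load. Each group had 3 libraries. Neither the age of the mice nor the sorting gates are stated in the labels.

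Complement is a cascade of blood and tissue proteins that tags and destroys targets. C1q starts its classical arm by binding to antibody complexes, dying cells or debris, C3 is the hub on which all arms converge, and factor B, the product of Cfb, forms the convertase that amplifies C3 cleavage in the alternative arm. The fragments C3a and C5a signal through the G protein-coupled receptors encoded by C3ar1 and C5ar1. In the brain, macrophages and microglia are a main source of C1q, and C1q and C3 mark synapses and myelin debris for removal by phagocytes.

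The groups are those named by the count columns, which are also the sample descriptions. For 8 of the 12 samples the title names another group than the description, and for 4 they are the same. Both cannot be right, and every difference below rests on the column names. With the groups of the titles, edgeR called 0 of the 7 loci in both comparisons of lineage, 1 (C3ar1, log2 fold change 0.85, adjusted p = 0.0202) in LL-MDM against MDM and 0 in LL-MG against MG. Over all gene loci the titles gave 0 calls in both comparisons of lineage, 2013 in LL-MDM against MDM and 1162 in LL-MG against MG. The column names gave 6367 in MG against MDM, 3192 in LL-MG against LL-MDM, 3720 in LL-MDM against MDM and 2868 in LL-MG against MG. The loss of lineage calls by title is thus not particular to the members. Library totals ran from 1162969 counts (LL-MDM 1) to 18938222 (MDM 2), and 1 CPM (a count divided by the scaled library total, in the usual per-million unit) is 1.18 counts in the smallest. The MG libraries differed most among themselves, with a chi-square per degree of freedom across regions of 4.95 between MG 1 and MG 2, 2.31 between MG 1 and MG 3 and 2.40 between MG 2 and MG 3, where pairs of LL-MG libraries had 1.09 to 1.13. Taken in sample order, the titles list the groups in the order of the column numbers, with 1 mouse number to each run of 4. If the titles were written in column order, each run of 4 columns would be 1 mouse, which the labels do not state. The titles number 3 mice but do not tie a library to one with certainty. Each p-value reflects only how far libraries within groups differ, which may be technical. That spread is 1 estimate per feature, shared by the 4 groups and informed by other features. A p-value thus also depends on libraries outside its comparison, and the wider spread among MG libraries is averaged with that of the other groups. The share of cells that are open at a site and the openness of each cell cannot be told apart in these bulk libraries.

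RefSeq promoters (GRCm38.p6, the assembly of mm10) were matched for 5 of the 7 genes, C1qb, C1qc, C3, C3ar1 and C5ar1, all on the minus strand. In each of the 5, an accessible region covered the transcription start of the promoter entry used. For C5ar1 the gene span extends past that start, to chr7:16259540. Its start region ends at 16259400 and does not reach that end, and part of its promoter window lies inside the span. Each of these 5 start regions was called higher in MG and in LL-MDM, each against MDM, though the C3 call in MG was lost under most alternatives. The 250 bases before the start are shown for C1qb, C1qc and both receptors, but not for C3. Capitals mark in each the match to 1 motif bound by factors active in macrophages, PU.1 (GAGGAA on either strand) in C1qb and C1qc, AP-1 (TGANTCA) in C3ar1 and IRF (GAAANNGAA) in C5ar1, where the IRF and C1qc PU.1 matches are on the opposite strand. Matches to further motifs, left in lower case, are given after the sequences. The C1qb window is chr4:136886201-136886450, the C1qc window chr4:136892915-136893164, the C3ar1 window chr6:122856158-122856407 and the C5ar1 window chr7:16259339-16259588.
C1qb: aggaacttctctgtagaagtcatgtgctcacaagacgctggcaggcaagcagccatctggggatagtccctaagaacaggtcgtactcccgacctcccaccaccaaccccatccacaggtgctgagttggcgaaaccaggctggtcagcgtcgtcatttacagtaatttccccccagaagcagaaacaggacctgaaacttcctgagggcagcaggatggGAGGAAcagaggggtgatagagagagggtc
C1qc: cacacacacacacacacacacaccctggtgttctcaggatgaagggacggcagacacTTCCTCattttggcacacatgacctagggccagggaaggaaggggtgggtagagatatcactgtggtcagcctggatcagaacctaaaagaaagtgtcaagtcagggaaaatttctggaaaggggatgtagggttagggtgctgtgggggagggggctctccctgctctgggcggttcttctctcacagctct
C3ar1: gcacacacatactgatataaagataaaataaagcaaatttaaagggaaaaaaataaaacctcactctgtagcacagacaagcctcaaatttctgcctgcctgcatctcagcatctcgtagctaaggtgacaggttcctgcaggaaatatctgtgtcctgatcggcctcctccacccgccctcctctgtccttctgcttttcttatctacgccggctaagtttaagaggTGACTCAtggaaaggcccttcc
C5ar1: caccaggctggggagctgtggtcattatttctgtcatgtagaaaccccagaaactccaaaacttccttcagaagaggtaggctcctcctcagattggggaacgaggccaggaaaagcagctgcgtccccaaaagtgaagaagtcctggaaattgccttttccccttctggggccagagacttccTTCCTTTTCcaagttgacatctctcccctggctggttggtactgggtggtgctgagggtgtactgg

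The start regions held all 250 of these bases for C1qb, C1qc and C3, 173 for C3ar1 and 62 for C5ar1. The PU.1 letters, bound by the factor that defines macrophage identity, were in 23.3% of all 32851 promoter windows of this length, and in those of C1qb (30 bases before the start) and C1qc (193 before). The AP-1 letters of C3ar1 lie 22 bases before its start and occur in 6.75% of windows, and the IRF letters of C5ar1 lie 66 before and occur in 7.13%. Those IRF letters run from 66 to 58 bases before the start and so cross the edge of the start region, which held 62. A C/EBP match (TTGCNNAA, 9.56% of windows) was found 45 bases before the start of C3. The MAF letters TGCTGA were in 4 of the 5 windows (C1qb, C3, C3ar1 and C5ar1) and in 16.1% of all, and the nuclear receptor letters AGGTCA in C1qc and C3 and in 14.0% of all. C3ar1 also held NF-kB letters (GGNNTTTCC, 4.93%), which lie beside but do not overlap its AP-1 match. The TATA box letters (TATAAA, 12.4%) of C3ar1 lie 235 bases before its start, outside the start region. Such matches describe the letters only.

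The C1q genes lie next to each other on chromosome 4 and were least accessible in MDM. C1qa (chr4:136895916-136898844), summed over its locus, had 33.4, 35.8 and 39.0 CPM in the MDM libraries, 81.0, 79.2 and 73.0 in LL-MDM, 83.4, 46.5 and 62.9 in MG, and 80.6, 99.9 and 90.3 in LL-MG. The MDM libraries lay below all 9 others, and MG 2 was the lowest of those. C1qb (chr4:136880126-136886200) had 23.6, 28.0 and 27.8 CPM in MDM, 44.3, 57.9 and 55.4 in LL-MDM, 64.6, 31.9 and 38.6 in MG, and 60.7, 68.6 and 47.9 in LL-MG. C1qc (chr4:136889801-136892936) had 41.8, 46.2 and 49.8 CPM in MDM, 91.2, 102 and 99.4 in LL-MDM, 108, 58.2 and 76.6 in MG, and 108, 128 and 101 in LL-MG. The order of group means was MDM, MG, LL-MDM, LL-MG for all 3 genes, and apart from MDM each neighbour in this order overlapped the next. The genes are not independent: 60.2% of the counts of C1qa, 93.8% of C1qb and 100% of C1qc come from regions that a neighbouring C1q gene also counts.

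**Figure D1:**
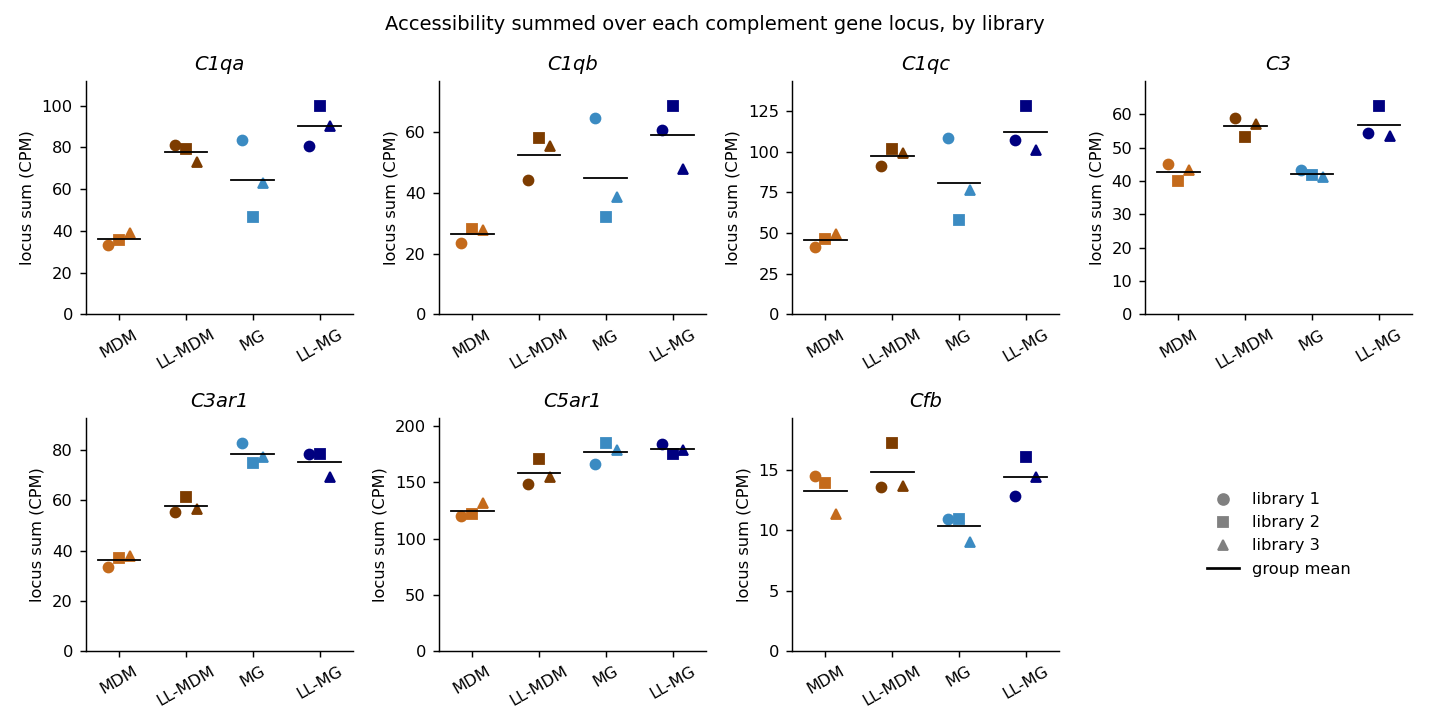
Locus sums of the 7 complement genes in CPM, by library (symbols) and group, with the group mean as a bar, each axis from 0. The 3 MDM libraries are the lowest at the C1q, C3ar1 and C5ar1 loci, and the MG libraries spread from 46.5 to 83.4 CPM at C1qa but only from 41.3 to 43.4 CPM at C3.

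The C1q loci rose in lipid-laden MDM and in MG, each against MDM. In LL-MDM against MDM the log2 fold changes were 1.11 ± 0.15 for C1qa (a 2.16-fold difference), 1.04 ± 0.21 for C1qb and 1.11 ± 0.17 for C1qc (edgeR quasi-likelihood, adjusted p = 0.000136, 0.00376 and 0.000685; errors are standard errors). In MG against MDM they were 0.79 ± 0.15, 0.70 ± 0.21 and 0.78 ± 0.17 (edgeR, adjusted p = 0.000586, 0.0174 and 0.00273). These comparisons share the MDM libraries. The C1qb rise in MG was not called without MDM 1 (0.63, adjusted p = 0.068), and without MG 2 the 3 MG rises were 1.04, 0.95 and 1.02. With MG 1 as the only MG library, assumed to vary like the other groups, they were 1.25, 1.32 and 1.28.

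Between the lipid-laden groups no C1q locus was called: LL-MG against LL-MDM gave 0.22 ± 0.16, 0.11 ± 0.23 and 0.18 ± 0.18 for C1qa, C1qb and C1qc (edgeR, adjusted p = 0.379, 0.797 and 0.545). Between LL-MG and MG, C1qa rose by 0.54 ± 0.16 (edgeR, adjusted p = 0.0325) although the groups overlapped, and C1qb (0.45 ± 0.23) and C1qc (0.51 ± 0.18) were not called (edgeR, adjusted p = 0.181 and 0.0654). The choice of MG libraries set these values. Without MG 1 they were 0.72 for each of C1qa, C1qb and C1qc and all called (edgeR, adjusted p = 3.87e-06, 8.96e-05 and 2.03e-06), without MG 2 they were 0.31, 0.21 and 0.28 and none was called (adjusted p = 0.0973, 0.545 and 0.158), and with MG 1 alone 0.10, -0.16 and 0.03. The C1qa call was also lost without MG 3, LL-MDM 3 or any 1 of the LL-MG libraries (log2 fold changes of 0.46 to 0.61, adjusted p = 0.0508 to 0.117).

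Of the 5 tested C1q regions, 4 had the order of the sums and 1, inside C1qb, did not. The region over the C1qc start (chr4:136892871-136893205) had 15.9, 15.8 and 19.4 CPM in MDM, 38.9, 35.5 and 38.6 in LL-MDM, 35.4, 27.5 and 32.2 in MG, and 40.7, 45.4 and 39.5 in LL-MG. None of the 4 groups overlapped there. It rose by 1.15 ± 0.14 in LL-MDM and by 0.90 ± 0.14 in MG, each against MDM (edgeR, adjusted p = 2.78e-07 and 2.09e-06). The region over the C1qb start (chr4:136886037-136886531) held 82.8% to 93.6% of the counts of its locus in every library, and rose by 1.11 ± 0.18 in LL-MDM and 0.83 ± 0.18 in MG (edgeR, adjusted p = 9.96e-05 and 0.000586). It had 18.9, 23.6 and 26.1 CPM in MDM, 40.6, 50.6 and 51.4 in LL-MDM, 56.3, 32.4 and 35.2 in MG, and 52.8, 59.3 and 39.9 in LL-MG. The region across the upper end of the C1qa span (chr4:136898726-136899072) rose by 1.05 ± 0.17 and 0.91 ± 0.17 (edgeR, adjusted p = 1.99e-05 and 2.91e-05), from 12.4, 15.0 and 16.3 CPM in MDM to 32.2, 31.0 and 26.8 in LL-MDM and 37.2, 21.3 and 25.2 in MG, with 28.1, 34.2 and 33.3 in LL-MG. A weaker region 1.20 kb before the C1qc start (chr4:136894057-136894180), with 3.43 to 4.00 CPM in MDM, rose by 1.31 ± 0.26 and 1.01 ± 0.26 (edgeR, adjusted p = 0.00025 and 0.0017). A region of 55 bp just inside C1qb (chr4:136885909-136885963) was called in MG against MDM only, where it rose by 1.45 ± 0.36 (edgeR, adjusted p = 0.000893), from 0.980, 1.45 and 1.61 CPM to 2.29, 4.43 and 6.02. There MG had the highest mean. LL-MDM lay between 1.69 and 2.66 CPM, and LL-MG between 1.73 and 3.82, overlapping MG (-0.62 ± 0.44 against MG, edgeR, adjusted p = 0.378). The other 2 regions near C1qb were below the count filter, at means of 1.45 and 1.02 CPM over the 12 libraries.

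C3 showed another order. Its locus (chr17:57203967-57228136) had 45.0, 39.9 and 43.3 CPM in MDM, 58.8, 53.3 and 57.0 in LL-MDM, 43.4, 41.8 and 41.3 in MG, and 54.5, 62.5 and 53.6 in LL-MG. Both lipid-laden groups lay above both groups without lipid load, with no overlap, and within each pair the lineages overlapped. C3 rose by 0.38 ± 0.09 in LL-MDM against MDM and by 0.43 ± 0.10 in LL-MG against MG (edgeR, adjusted p = 0.00546 and 0.011), a 1.31- and a 1.35-fold difference. The lineages differed by -0.02 ± 0.09 without lipid load and by 0.03 ± 0.11 with it (edgeR, adjusted p = 0.919 and 0.896), and the sign of the first turned under several settings. The call in LL-MG was lost without LL-MG 2 (0.36, adjusted p = 0.0588). Counts shared with the neighbouring genes Trip10 and Gpr108 made up 41.5% of the C3 sum, and over its unshared regions alone C3 differed by 0.09 in LL-MDM (edgeR, adjusted p = 0.689) and 0.36 in LL-MG (adjusted p = 0.0811), neither called.

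The shared counts of C3 are mostly those of its start region (chr17:57228056-57228446), which Trip10 also counts. It had 14.5, 10.9 and 15.9 CPM in MDM, 20.3, 22.8 and 25.2 in LL-MDM, 18.1, 21.1 and 14.7 in MG, and 25.5, 23.8 and 17.7 in LL-MG. It rose by 0.78 ± 0.18 in LL-MDM against MDM, where the groups did not overlap (edgeR, adjusted p = 0.00142), and by 0.43 ± 0.18 in MG, where they did (adjusted p = 0.0468). The MG call was lost under most alternatives, and without MDM 2 the value was 0.20 (adjusted p = 0.444). A region 8.71 kb inside the gene (chr17:57219283-57219562) was lower in MG, at 11.7, 7.21 and 11.2 CPM against 13.3, 14.1 and 14.1 in MDM (log2 fold change -0.50 ± 0.19, edgeR, adjusted p = 0.0285). That call was lost without MG 2 (-0.28, adjusted p = 0.241) or without MDM 2 (-0.54, adjusted p = 0.0558). Downstream of the gene, a region of 2.49 to 2.94 CPM in MDM (chr17:57201992-57202079) rose by 0.94 ± 0.28 in MG (edgeR, adjusted p = 0.00507). That rise was not called without MDM 2 (0.81, adjusted p = 0.0554). A region 3.64 kb before the start (chr17:57231690-57231856) fell by 1.17 ± 0.47 (adjusted p = 0.0354), from 2.12 to 2.79 CPM in MDM to 0.492 to 2.13 in MG. Without MG 2 it stood at -0.66 (adjusted p = 0.285), and leaving out MG 3 or any 1 MDM library also ended the call. Of the other C3 regions, 3 were tested with no call and 2 were below the filter.

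Cfb was the least accessible member. Its locus (chr17:34856374-34862514) had 14.5, 13.9 and 11.4 CPM in MDM, 13.6, 17.3 and 13.7 in LL-MDM, 11.0, 11.0 and 9.05 in MG, and 12.9, 16.1 and 14.4 in LL-MG. The MG libraries were the lowest 3 of the 12, yet no comparison was called: the log2 fold change was -0.38 ± 0.18 in MG against MDM (edgeR, adjusted p = 0.0975), 0.20 ± 0.18 in LL-MDM against MDM (0.463), 0.48 ± 0.21 in LL-MG against MG (0.108) and -0.10 ± 0.21 in LL-MG against LL-MDM (0.797). Without MDM 3 the first was called (-0.46, adjusted p = 0.0479). All of its counts are shared with C2, the classical-arm protease that is its neighbour and homologue, or with Nelfe. Just below the upper end of the span, a region of 86 bp (chr17:34862259-34862344) had 2.03, 1.82 and 1.31 CPM in MDM, 1.69, 3.06 and 1.96 in LL-MDM and 0, 0.492 and 0 in MG. It was below the count filter and was not tested, and 3 counts are worth 1.06 CPM in MG 1, 0.491 in MG 2 and 0.700 in MG 3. The region with the most counts lies inside the span (chr17:34858721-34858987) at a mean of 6.42 CPM over the 12 libraries, and was called in no comparison.

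The receptor loci separated the groups more evenly. C3ar1 (chr6:122847140-122856157) had 33.6, 36.9 and 38.1 CPM in MDM, 55.4, 61.3 and 56.7 in LL-MDM, 83.0, 74.8 and 77.5 in MG, and 78.4, 78.6 and 69.5 in LL-MG. MDM lay below LL-MDM and LL-MDM below both microglia groups, without overlap, and MG and LL-MG overlapped. C3ar1 rose 2.17-fold in MG against MDM (log2 fold change 1.11 ± 0.09, edgeR, adjusted p = 1.84e-09), 1.63-fold in LL-MDM against MDM (0.70 ± 0.09, adjusted p = 1.95e-05) and 1.28-fold in LL-MG against LL-MDM (0.36 ± 0.10, adjusted p = 0.013). In LL-MG against MG it differed by -0.05 ± 0.09 (edgeR, adjusted p = 0.72). The LL-MG against LL-MDM call was lost without LL-MDM 3, LL-MG 1 or LL-MG 2 (0.34, 0.33 and 0.33, adjusted p = 0.0551, 0.0574 and 0.0538), and with a flank of 20 kb, which takes in further regions of neighbouring genes, the value was -0.0017 and that of LL-MDM against MDM 0.12 (edgeR, adjusted p = 0.991 and 0.224). Only 4.59% of the C3ar1 counts at 5 kb are shared, with Foxj2.

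All 4 C3ar1 regions rose in MG against MDM. The start region (chr6:122855961-122856330) had 14.4, 17.4 and 19.1 CPM in MDM, 26.2, 32.9 and 32.1 in LL-MDM, 37.9, 42.4 and 42.9 in MG, and 37.6, 40.9 and 33.3 in LL-MG, so it repeated the order of the sum. It rose by 1.30 ± 0.14 in MG and 0.90 ± 0.15 in LL-MDM, each against MDM (edgeR, adjusted p = 1.9e-09 and 1.77e-05). Inside the gene, the region 1.46 kb from the start (chr6:122854494-122854893) had 12.5 to 13.2 CPM in MDM and 25.4 to 25.9 in MG (0.98 ± 0.16, edgeR, adjusted p = 5.65e-06), and the region at 3.26 kb (chr6:122852819-122852986) had 4.12 to 4.74 and 11.0 to 15.1 (1.61 ± 0.21, adjusted p = 1.32e-07). LL-MDM was not called against MDM at 1.46 kb (0.34 ± 0.18, edgeR, adjusted p = 0.155) and was at 3.26 kb (0.66 ± 0.24, adjusted p = 0.0386), but the latter call was lost when any 1 MDM or LL-MDM library was left out (0.52 to 0.77, adjusted p = 0.0504 to 0.217). The weak region beyond the far end of the gene (chr6:122845669-122845782) rose from 1.09 to 1.40 CPM in MDM to 2.10 to 6.73 in MG (1.57 ± 0.37, edgeR, adjusted p = 0.000605) and 2.54 to 4.91 in LL-MDM (1.47 ± 0.39, adjusted p = 0.00454). Without LL-MDM 3 the LL-MDM rise there was 1.17 and not called (adjusted p = 0.0794).

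C5ar1 (chr7:16246743-16259540) had 121, 122 and 132 CPM in MDM, 148, 171 and 155 in LL-MDM, 166, 185 and 179 in MG, and 184, 176 and 179 in LL-MG. MDM lay below the other 9 libraries, and the other groups overlapped as neighbours in the order LL-MDM, MG, LL-MG. C5ar1 rose by 0.51 ± 0.07 in MG and by 0.36 ± 0.08 in LL-MDM, each against MDM (edgeR, adjusted p = 1.02e-05 and 0.00176), and was not called in LL-MG against LL-MDM (0.17 ± 0.08, adjusted p = 0.163) or against MG (0.02 ± 0.08, adjusted p = 0.893). Of its counts 21.1% are shared with C5ar2, the gene of the second C5a receptor.

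The change of the C5ar1 sum was made up of unequal changes in its single regions. The start region (chr7:16259119-16259400) had 10.8, 9.97 and 13.1 CPM in MDM, 37.2, 29.7 and 25.2 in LL-MDM, 28.3, 40.6 and 35.0 in MG, and 31.6, 35.1 and 31.6 in LL-MG. It rose by 1.67 ± 0.16 in MG and 1.42 ± 0.17 in LL-MDM, each against MDM (edgeR, adjusted p = 1.52e-10 and 1.03e-07), and its share of the counts of the locus was 8.41% to 9.88% in MDM, 16.2% to 25.3% in LL-MDM, 17.0% to 19.1% in MG and 17.6% to 21.0% in LL-MG. The MDM shares lay below those of all 9 other libraries. The region 1.34 kb inside (chr7:16257834-16258170) rose by 1.01 ± 0.14 in MG and 0.54 ± 0.15 in LL-MDM (edgeR, adjusted p = 2.72e-07 and 0.00557), from 21.4, 20.9 and 24.8 CPM in MDM to 38.6, 51.1 and 43.1 in MG and 24.6, 33.4 and 35.3 in LL-MDM, where LL-MDM 1 lay within the MDM values. That LL-MDM call was lost without LL-MDM 2 or LL-MDM 3 (0.49 and 0.47, adjusted p = 0.0659 and 0.064). The region with the most counts, 4.92 kb inside (chr7:16254199-16254642), changed least among the called ones, by 0.30 ± 0.12 in MG and 0.39 ± 0.13 in LL-MDM (edgeR, adjusted p = 0.0388 and 0.0165), from 34.0, 35.9 and 38.9 CPM in MDM to 48.9, 43.7 and 41.5 in MG. Without MDM 1 they were not called, at 0.20 (adjusted p = 0.24) and 0.33 (adjusted p = 0.0958). The MG call was also lost without MDM 2, MG 1 or any 1 lipid-laden library, and the LL-MDM call without MDM 2, LL-MDM 2 or LL-MDM 3.

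Of the C5ar1 regions, 1 was called lower in a comparison of groups. Inside the gene, 8.41 kb from the start (chr7:16250782-16251072), the values were 16.3, 17.6 and 17.3 CPM in MDM, 13.5, 17.4 and 15.4 in LL-MDM, 11.7, 28.2 and 23.6 in MG, and 6.92, 10.3 and 7.98 in LL-MG. The LL-MG libraries were the lowest 3 of the 12. The region fell by 1.39 ± 0.25 in LL-MG against MG and by 0.94 ± 0.27 against LL-MDM (edgeR, adjusted p = 0.00141 and 0.0114). MG 1 stood far below the other MG libraries here, and with MG 1 as the only MG library the difference from MG was -0.49 (adjusted p = 0.755). The call against LL-MDM was lost without LL-MDM 2, LL-MG 1 or LL-MG 3 (-0.78, -0.80 and -0.84, adjusted p = 0.115, 0.0856 and 0.0722). This region held 13.1% to 14.8% of the counts of the locus in MDM and 3.85% to 6.20% in LL-MG. A weaker region before the start (chr7:16263143-16263312) had the same order of group means, with 5.39 to 5.90 CPM in LL-MG and 7.44 to 9.01 in MG, which did not overlap, but was not called in that comparison (-0.58 ± 0.28, edgeR, adjusted p = 0.172).

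**Figure D2:**
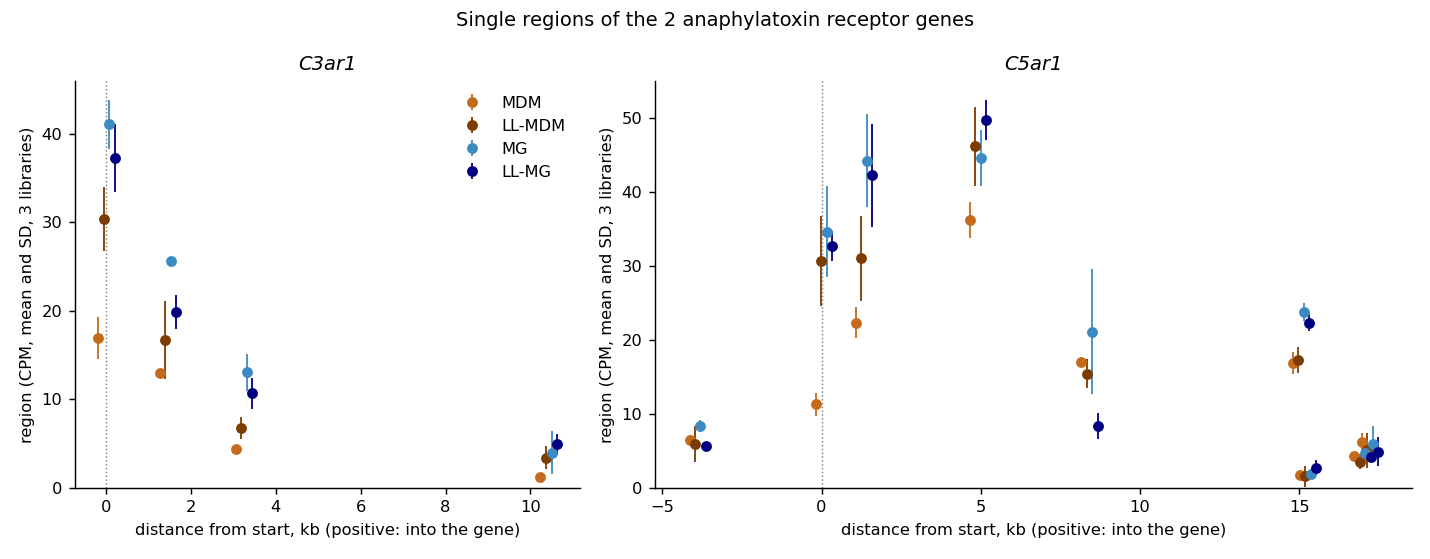
Mean and SD over 3 libraries, in CPM from 0, of every region counted for C3ar1 (left) and C5ar1 (right), against the distance of its centre from the transcription start in kb, with the groups drawn side by side at each region. MDM is the lowest group at both start regions, and at 8.41 kb inside C5ar1 the LL-MG libraries (6.92 to 10.3 CPM) lie below all others.

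Beyond the gene, toward C5ar2, a region 15.1 kb from the C5ar1 start (chr7:16244160-16244397) rose by 0.51 ± 0.15 in MG (edgeR, adjusted p = 0.00475), from 15.4, 17.1 and 18.3 CPM in MDM to 22.3, 24.6 and 24.5. The rise there was 0.38 without MDM 1 (adjusted p = 0.0664). The C5ar1 regions also comprised 3 that were tested with no call, the one before the start among them, and 1 below the filter.

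Set against all features, the members were called more often in some comparisons and not in others. In MG against MDM edgeR called 5 of the 7 loci, all higher, where 41% of 15544 gene loci were called and 20.4% were higher. In LL-MDM against MDM it called 6 of 7, all higher, against 23.9% called and 11.7% higher. In LL-MG against MG it called 2 of 7 (C1qa and C3, both higher) against 18.5% called and 9.82% higher, and in LL-MG against LL-MDM 1 of 7 (C3ar1, higher) against 20.5% and 12.1%. The median log2 fold change over the members was 0.70 in both MG and LL-MDM against MDM, and over all loci 0.0054 and -0.0039. The C1q loci share regions, so 7 loci are fewer than 7 separate observations. The members were also chosen with earlier results of these data known. Their shares of calls, here and below, therefore describe the members and do not test them against other genes.

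**Figure D3:**
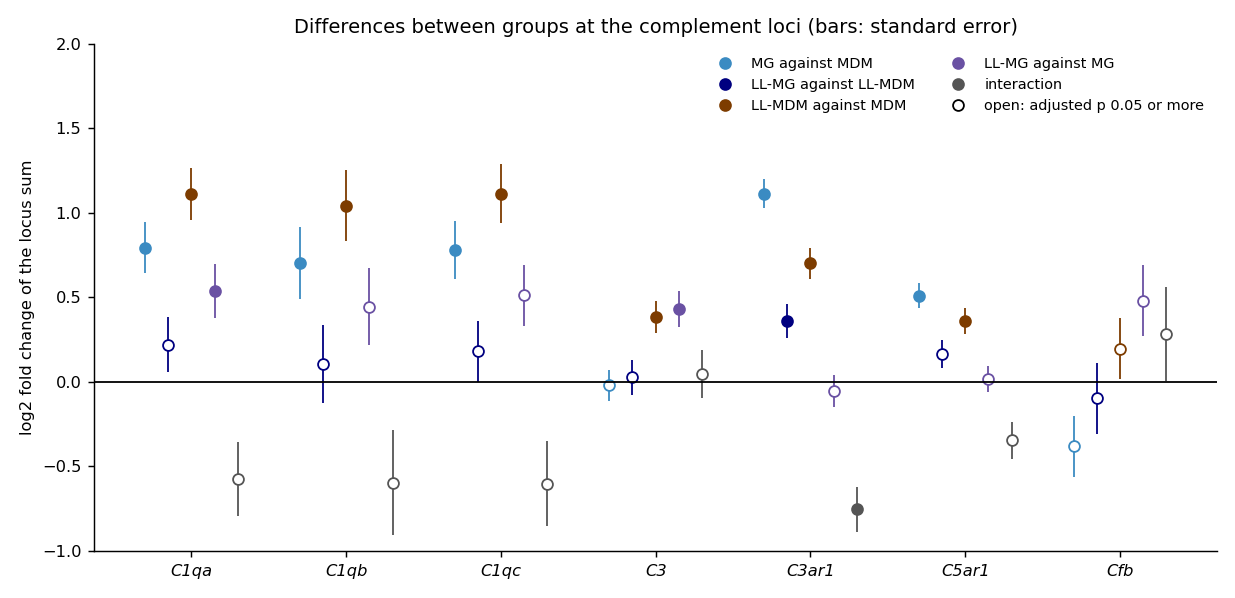
Log2 fold changes of the 7 locus sums in the 4 comparisons of groups and in the interaction, with bars of 1 standard error, filled where the adjusted p is under 0.05. The values of LL-MDM against MDM lie above those of LL-MG against MG at the C1q, C3ar1 and C5ar1 loci and below at C3 and Cfb, and the interaction is filled at C3ar1 alone.

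Of the 33 regions 26 passed the count filter, and the counts below concern those 26 alone. In MG against MDM 17 of 26 regions were called, 15 higher and 2 lower, where 51.7% of all 77737 regions were called, 26.8% higher and 24.9% lower. In LL-MDM against MDM 11 were called, all higher, against 29.5% of all regions (15.4% higher). Without LL-MDM 3 this count was 7. In LL-MG against LL-MDM 1 was called, lower, against 21.5% called and 11.2% lower, and in LL-MG against MG also 1, lower, against 12.2% and 8.01%. Leaving out MG 1 raised that last count to 7. By their identifiers, all 33 regions were called as peaks in MDM, 19 in MG, 15 in LL-MDM and 14 in LL-MG. Of all 117835 regions, 105173 were called in MDM, 61019 in MG, 50422 in LL-MDM and 42698 in LL-MG, so the whole set falls off in the same order. In all 4 groups 13 of the 33 were called (39.4%), against 27.6% of all regions. MDM was also the most deeply sequenced group, and 13 of the 33 were called there only, 39.4% against 37.8% of all regions.

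The interaction asks whether lipid load went with a different change in microglia than in MDM. It was called at C3ar1, with a log2 value of -0.75 ± 0.13 (edgeR, adjusted p = 0.00131), 1 of the 7 loci, where 8.83% of all loci were called and 2.95% were negative. The C3ar1 difference with lipid load was thus 0.70 in MDM and -0.05 in microglia. C5ar1 was close to the threshold (-0.35 ± 0.11, edgeR, adjusted p = 0.0537) and passed it with DESeq2 (-0.36, adjusted p = 0.0402) and with scaling by relative log expression (-0.35, adjusted p = 0.0458) or by total counts (-0.43, adjusted p = 0.0162). The C1q loci were not called (-0.57 ± 0.22, -0.60 ± 0.31 and -0.60 ± 0.25, edgeR, adjusted p = 0.121, 0.266 and 0.162). Without MG 2 they were -0.82, -0.86 and -0.85 and all called (edgeR, adjusted p = 0.000267, 0.0281 and 0.000531), and without MG 1 C1qa and C1qc were called at -0.41 (adjusted p = 0.044 and 0.0336). C3 (0.05 ± 0.14) and Cfb (0.28 ± 0.28) were not called (edgeR, adjusted p = 0.886 and 0.573).

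Among the regions 5 of 26 passed the interaction test, all negative, where 10.9% of all regions were called and 6.34% were negative. The start regions of C5ar1 (-1.53 ± 0.23) and C3ar1 (-1.05 ± 0.21) were called (edgeR, adjusted p = 8.69e-05 and 0.0013) and stayed called in each of the 12 fits that left out 1 library. The start region of C1qc (-0.73 ± 0.20), that at the end of C1qa (-0.81 ± 0.25) and the C5ar1 region at 8.41 kb (-1.30 ± 0.33) were called too (edgeR, adjusted p = 0.0183, 0.0312 and 0.0109). The C1qc call held without MDM 3, MG 1, MG 2 or LL-MG 2 and was lost without each of the 8 other libraries, the C1qa call held without MDM 3 or MG 2 and was lost without each of the 10 others, and the last was lost without LL-MDM 2, LL-MG 1 or LL-MG 3.

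Cell type markers differed between the groups as well, in part with the members. Of the 10 microglia markers 7 were higher in MG against MDM, 6 in LL-MG against LL-MDM and 5 in LL-MDM against MDM, and none was lower in these. In LL-MDM against MDM, P2ry12 (-0.04), Cx3cr1 (-0.05), Siglech (-0.16) and Gpr34 (-0.23) were not called (edgeR, adjusted p = 0.6 to 0.932). In LL-MG against LL-MDM the median over the 10 was 0.67, where 1 of the 7 member loci was called. None had a group mean of 0. Their summed loci had 347 to 370 CPM in MDM, 418 to 446 in LL-MDM, 430 to 686 in MG and 675 to 738 in LL-MG. Sall1, a transcription factor that defines microglia, had a mean of 0.808 CPM in MDM, 9.31 in LL-MDM, 55.6 in MG and 73.8 in LL-MG. Tmem119 was instead highest in LL-MDM, with means of 31.8, 73.6, 45.8 and 56.9 CPM in the same order of groups. Olfml3, at 18.6, 40.5, 35.6 and 52.6 CPM, was also higher in LL-MDM than in MG. The other microglia markers had lower means in LL-MDM than in MG. Of 9 tested monocyte-derived markers 8 were lower in MG and 4 lower and 1 higher in LL-MDM, with sums of 751 to 806 CPM in MDM, 549 to 595 in LL-MDM, 299 to 365 in MG and 325 to 355 in LL-MG. The sums of markers that macrophages share were 779 CPM in MG 1, 496 in MG 2 and 607 in MG 3, the same order as the C1q loci in these libraries. Among 6 dendritic cell markers 4 were lower in LL-MDM and 3 in MG, each against MDM. In MG against MDM, 2 of 6 tested astrocyte markers were higher and 2 lower, 2 of 7 oligodendrocyte markers higher and 2 lower, 2 of 3 neuron and 2 of 6 neutrophil markers lower, 1 of 4 endothelial markers higher and 1 lower, and 1 of 5 T and NK and 1 of 4 B cell markers lower. Among them were Slc1a3, a glutamate transporter of astrocytes (8.64 against 40.5 CPM, 2.10 ± 0.29), and Map2, a neuronal cytoskeletal gene (11.4 against 2.54 CPM, -2.03 ± 0.31), picked after their values were seen. In the other comparisons of groups each of these lists had at most 2 called markers in either direction. The part of these markers in the complement differences was not tested.

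**Figure D4:**
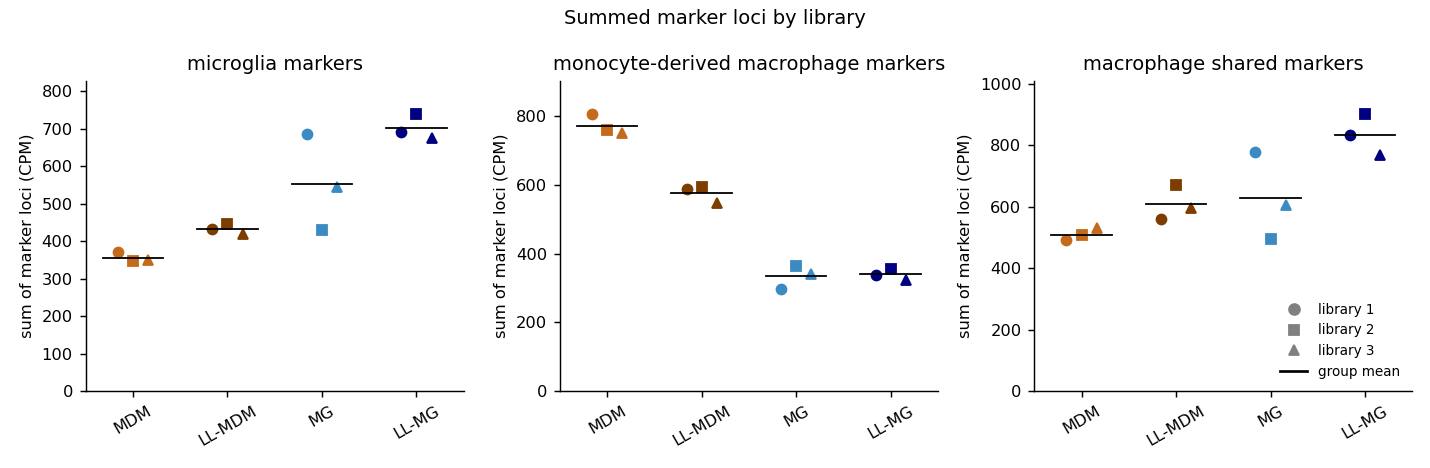
Summed loci of microglia, monocyte-derived and shared macrophage markers in CPM from 0, by library (symbols) with the group mean as a bar. The LL-MDM libraries lie between MDM and MG for monocyte-derived markers, and MG 2 is the lowest MG library for microglia (430 CPM) and shared markers (496 CPM).

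Other genes of the pathway were followed by a list of 52, of which 42 had a region and 41 were tested. In MG against MDM 12 were higher and 9 lower, with a median log2 fold change of -0.04. Of all gene loci 41% were called in that comparison, 20.4% of them all being higher calls. Among the highest by p were Cd46, a membrane inhibitor (7.54 against 23.1 CPM in MDM and MG, 1.58 ± 0.16), C5ar2 (36.1 against 51.2 CPM, 0.50 ± 0.09) and the collectin Colec12 (1.22 against 4.21 CPM, 1.76 ± 0.34). Lower were Hc, which encodes C5 (66.0 against 30.6 CPM, -1.06 ± 0.13), Cfd, the protease that activates factor B (17.2 against 7.19 CPM, -1.26 ± 0.20), the ficolin Fcnb (4.10 against 1.10 CPM, -1.88 ± 0.33) and the lectin receptor Cd209a (5.11 against 0.822 CPM, -2.43 ± 0.44), with edgeR adjusted p of 8.81e-08 for Cd46 to 0.000298 for Colec12. The receptor genes C5ar1 and C5ar2, which share regions, were thus higher in MG and the gene of their ligand was lower. The receptors had 3 higher and 4 lower of 11, the membrane and soluble regulators 4 higher and 0 lower of 10.

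In LL-MDM against MDM 7 of the 41 were higher and 5 lower (median 0.09), where 23.9% of all loci were called. Hc fell from 66.0 to 27.7 CPM (-1.21 ± 0.15, edgeR, adjusted p = 8.05e-06), Cfd from 17.2 to 10.8, Cd209a from 5.11 to 1.33, and Cfp, which encodes properdin, from 53.6 to 40.5 (edgeR, adjusted p = 0.00805, 0.00898 and 0.0155). Cd46 rose from 7.54 to 15.3 CPM, Cd59a, an inhibitor of the membrane attack complex, from 5.69 to 15.2, Colec12 from 1.22 to 4.32 and the endocytic receptor Lrp1 from 355 to 490 (edgeR, adjusted p = 0.000329, 0.00103, 0.00148 and 0.00196). LL-MG against MG gave 4 higher and 2 lower (median 0.18): Lrp1 (350 to 488 CPM), Susd4, a complement inhibitor (38.5 to 63.4), the lectin-arm protease Masp1 (27.8 to 43.1) and Cd59a (10.0 to 18.2) rose, and Cd55, the decay-accelerating factor (12.6 to 4.37), and Serping1, the C1 inhibitor (9.23 to 3.10), fell (edgeR, adjusted p = 0.00446 for Susd4 to 0.0317 for Serping1). The MG libraries lay far apart for Cd55 (SD 8.64 CPM) and Serping1 (SD 5.69 CPM), and the groups overlapped for Cd55 and Cd59a. Of all loci 18.5% were called in LL-MG against MG.

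In LL-MG against LL-MDM 6 of the 41 were higher and 3 lower (median 0.09), where 20.5% of all loci were called. Masp1 (19.9 against 43.1 CPM), C5ar2 (37.4 against 54.4) and Cd46 (15.3 against 29.5) were higher in LL-MG, and Cd93 (31.5 against 7.66), Fcnb (3.73 against 0.703) and the macrophage C3b receptor gene Vsig4 (3.85 against 1.10) were lower (edgeR, adjusted p = 9.23e-07 for Cd93 to 0.0428 for Vsig4). The interaction was called for 5 of the 41, where 8.83% of all loci were called. It stood at -2.59 ± 0.55 for Colec12, -2.32 ± 0.59 for Cd55 (which rests on the same MG libraries), -1.18 ± 0.29 for Cd93, 0.99 ± 0.23 for Hc and 0.70 ± 0.16 for Itgax, a subunit of complement receptor 4 (edgeR, adjusted p = 0.00636, 0.024, 0.0136, 0.00986 and 0.0118).

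Per kb of accessible sequence the C1qc, C1qa and C5ar1 loci had the highest mean levels over the 12 libraries, 83.4, 83.2 and 74.3 CPM per kb, C3ar1 and C1qb had 58.9 and 58.4, C3 37.2 and Cfb 19.5. Across the 12 libraries, which fall into 4 groups and share their scaling, the log2 CPM of C3ar1 and C5ar1, on different chromosomes, had a Pearson correlation of 0.955, and C3 and C3ar1 one of 0.304. By the same measure among 15531 loci that share no region with a member, the loci most like C1qa were Tpbpb (0.985), Syngr1 (0.979) and Cracr2b (0.976), those most like C1qb were Dnajc18, Tspan14 and Pgpep1 (0.969 to 0.973), and those most like C1qc were Syngr1, Pgpep1 and Prap1 (0.972 to 0.983). C3ar1 was most like Rhob (0.98), Nova1 and Gclc (both 0.979), and C5ar1 most like Morn1 (0.985), Ski (0.978) and Tmem154 (0.973). C3 was most like Cisd3, Pnkd and Tasp1 (0.938 to 0.952), and Cfb, with the lowest values, most like Tbc1d30, Ecm1 and Sulf2 (0.875 to 0.908). The 3 loci closest to C3 had their higher means in LL-MDM and LL-MG, as in Cisd3 (32.1 CPM in MDM, 41.7 in LL-MDM, 32.4 in MG and 46.4 in LL-MG).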

How the data were processed

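The values are whole-number counts of 12 libraries in 117835 regions, used as deposited by the authors. The submitters' processing notes list SAMtools 1.10, deepTools 3.5.1, Picard 2.12.0 and BWA 0.7.17-r1188 and the mm10 build, with no role or order. Which peak caller was used, and whether duplicates were removed or reads shifted for the transposase, is not given in the sources used here. Region identifiers name peaks of the 4 groups merged into 1 set. A fragment and its PCR copies cannot be separated in these counts.

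Gene spans came from a RefSeq table of GRCm38.p6 without strand or exons, so exon, intron or UTR positions are not given. Counts were summed over each locus (span and 5 kb on either side). Of the 81229 regions assigned to a gene, 11098 belong to more than 1. Regions (77737) and loci (15544) past filterByExpr were fitted with edgeR 4.0.16 in R 4.3.3 in 1 model of the 4 groups (glmQLFit, robust, and glmQLFTest), scaled by TMM computed on the regions or on the loci, and p-values were adjusted by Benjamini-Hochberg over all features of a kind, with 0.05 as the threshold. Standard errors come from the fold change and its F value. For correlations, log2 CPM were computed with a prior count of 2. The fits were tested on simulated counts drawn with the same dispersion in every group. That test therefore does not cover the wider spread among the MG libraries. Pairs of libraries in a group differed by a chi-square of at least 1.09 per degree of freedom, and none was treated as a copy of another. Replicate numbers follow sample order and were not used as pairs.

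The alternatives were scaling by relative log expression or total counts, no filter, DESeq2 1.42.0, the gene span alone, a 20 kb flank, unshared regions only, counts thinned to the smallest library, the groups of the titles, and leaving out each library. Fits without both MG 2 and MG 3, loci scaled by the factors of the regions, and runs of column numbers as a block, were chosen after seeing the data. The main scaling of loci by their own factors was likewise settled knowing how the factors of the regions shift the median locus. The members and lists were chosen with earlier results of these data known. Named regions were, per member, the one with the highest mean CPM, those over a start, and up to 3 with the smallest p in a comparison of groups; other regions are named in addition to account for every member. Named genes of the other complement list were up to 4 called loci in each direction by p (1 of them is not reported here), and the likest loci were the 3 with the highest correlation. The members' neighbours and the marker lists enter as described beside each result.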

Additional observations from a re-analysis of the deposited data

Results flagged for a closer look

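For 6 results the difference that went with lipid load was not the same in microglia as in monocyte-derived macrophages, by the interaction term itself (the log2 difference in microglia minus that in MDM). They are the C3ar1 locus (-0.75 ± 0.13), the C3ar1 start region (-1.05 ± 0.21), the C5ar1 start region (-1.53 ± 0.23), the C5ar1 region 8.41 kb inside the gene (-1.30 ± 0.33), the C1qc start region (-0.73 ± 0.20) and the region at the upper end of the C1qa span (-0.81 ± 0.25). In 5 of the 6 the MDM difference was a rise and the microglia difference was not called, while in the C5ar1 region inside the gene the MDM difference was -0.09 ± 0.21 and LL-MG fell by 1.39 ± 0.25 against MG. At the C1qc start region the uncalled microglia difference was a rise near the threshold, without overlap (0.41 ± 0.15, edgeR, adjusted p = 0.0587). At the end of C1qa it was 0.24 ± 0.18 (edgeR, adjusted p = 0.416). In the 12 fits that left out 1 library, 3 of the 6 stayed called each time, with values from -1.60 to -1.36 for the C5ar1 start region, from -1.10 to -0.87 for the C3ar1 start region and from -0.83 to -0.69 for the C3ar1 locus. The other 3 did not: the C5ar1 region inside the gene lost its call in 3 fits (-1.52 to -1.04, adjusted p up to 0.0954), the C1qc start region in 8 (-0.82 to -0.61, up to 0.112) and the region at the end of C1qa in 10 (-0.97 to -0.54, up to 0.185). In LL-MDM against MDM 5 of the 10 microglia markers were higher and none lower, and their part in these results was not tested.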

How the results depend on the processing

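The sources used here do not say that libraries are paired, but the column numbers fall into 3 runs of 4 with 1 library of each group. The titles in sample order name the groups in the order of these numbers, with 1 mouse number to each run. The runs may therefore be mice. Deviations from the group means across loci correlated at -0.14 to 0.107 in the 18 pairs of libraries within a run and at -0.158 to 0.138 in the 36 pairs between runs, and 2 of the 12 libraries were closest to one of their own run. As each deviation is from a mean of only 3 libraries, these values cannot exclude that a run is a mouse. The runs were not taken as pairs in the main fits. With these runs as a replicate block, chosen after seeing the data, 15 regions and 5 loci were called in MG against MDM, 10 and 6 in LL-MDM against MDM, 1 and 2 in LL-MG against MG, 1 and 1 between the lipid-laden groups, and 5 and 1 for the interaction. Calls lost were those of the C3 start region (0.43, adjusted p = 0.0519) and the C5ar1 region at 4.92 kb (0.30, 0.0523) in MG against MDM and of the C3ar1 region at 3.26 kb (0.66, 0.0521) in LL-MDM against MDM. Counts of called members differed from those reported by more than 1.5 times as follows, and the cause was not tested unless given. With the groups of the titles, the regions called were 0 in MG against MDM, 0 in LL-MG against LL-MDM and 2 in LL-MDM against MDM, and the loci 0, 0, 1 and, in LL-MG against MG, 0. Over all regions the titles gave 0 calls in each comparison of lineage and 13759 in LL-MDM against MDM. After thinning, which left 15 of the member regions to test, the regions called were 8, 0, 6 and, for the interaction, 2, and the loci 3 in LL-MDM against MDM. Scaling by relative log expression gave 3 regions in LL-MG against MG and 2 loci for the interaction, and total counts gave 2 regions in LL-MG against LL-MDM, 4 in LL-MG against MG and 2 interaction loci. With no filter 2 regions were called in LL-MG against MG. DESeq2 called 3 regions and 2 loci for the interaction. The gene span alone gave 2 interaction loci, and the 20 kb flank 0, with 1 locus in LL-MG against MG. Over unshared regions, which leave 5 loci to test, 3 loci were called in MG against MDM, 3 in LL-MDM against MDM, 0 in LL-MG against MG and 2 for the interaction. With the factors of the regions, which move the median of all loci from 0.0054 to 0.14 in MG against MDM, from 0.02 to -0.14 in LL-MG against MG and from -0.01 to -0.19 in the interaction, 1 locus was called in LL-MG against MG and 4 for the interaction (C1qa, C1qc, C3ar1 and C5ar1). Without both MG 2 and MG 3, 3 regions were called in LL-MG against LL-MDM, 0 regions and 0 loci in LL-MG against MG, and 4 interaction loci.

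Leaving out 1 library gave 12 to 18 regions in MG against MDM, 0 to 2 in LL-MG against LL-MDM, 7 to 13 in LL-MDM against MDM, 1 to 7 in LL-MG against MG and 2 to 8 for the interaction, and 4 to 6, 0 to 1, 6 to 6, 0 to 4 and 1 to 5 loci. Values near 0 changed sign. In MG against MDM the C3 locus (-0.02) stood at 0.050 with total counts, 0.077 with the 20 kb flank, 0.12 with the factors of the regions, 0.081 thinned, 0.094 by title, 0.054 without both MG 2 and MG 3, and -0.074 to 0.023 with 1 library left out. In LL-MG against LL-MDM, leaving out 1 library gave -0.0096 to 0.25 for C1qb, -0.042 to 0.070 for C3 and -0.17 to 0.077 for Cfb, and in LL-MG against MG -0.11 to 0.0086 for C3ar1 and -0.049 to 0.034 for C5ar1, with -0.022 to 0.099 for the C3 interaction. C3 was -0.015 in LL-MG against LL-MDM with the factors of the regions, and its interaction -0.034 with total counts, -0.028 at 20 kb, -0.13 with the factors of the regions and -0.020 without both MG 2 and MG 3. C5ar1 in LL-MG against MG was -0.027 with total counts, -0.027 over unshared regions and -0.14 with the factors of the regions. Over unshared regions C1qb was -0.21 in MG against MDM and 0.58 for the interaction, and without both MG 2 and MG 3 -0.16 in LL-MG against MG. At 20 kb Cfb was 0.048 in MG against MDM, -0.046 in LL-MDM against MDM, -0.18 in LL-MG against MG and -0.13 for the interaction, and C3ar1 -0.0017 in LL-MG against LL-MDM. Thinned, Cfb was 0.11 in LL-MG against LL-MDM.

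By title, MG against MDM gave -0.0040 for C5ar1, -0.10 for the C1qb region of 55 bp, -0.27 and 0.91 for the outer C3 regions below and above the gene, -0.016 for the C3ar1 region at 1.46 kb, and -0.083 and -0.015 for the C5ar1 regions at 15.1 and 4.92 kb. LL-MG against LL-MDM gave -0.19, -0.305, -0.24 and -0.10 for C1qa, C1qb, C1qc and C3ar1 and 0.10 for Cfb, LL-MDM against MDM -0.29 for Cfb, and LL-MG against MG -0.027, 0.63 and -0.13 for C3, C3ar1 and Cfb. The share of called loci that were higher was 49.8% in MG against MDM, 53.2% in LL-MG against MG and 66.5% in the interaction, and was 62.1%, 37.3% and 44.1% with total counts and 70.1%, 18.1% and 31.5% with the factors of the regions. Of called regions in LL-MG against MG 34.5% were higher, and 49.5% with total counts. The smallest library (LL-MDM 1) limits what can be seen in regions below about 3 counts, which are worth 2.54 CPM there.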
